A study of Mus musculus with 25 samples.

Results

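The genes described here encode the NF-kB transcription factor subunits and a set of regulators that NF-kB itself induces, 10 genes chosen by symbol: Nfkb1, Nfkb2, Rela, Rel, Nfkbia, Nfkbiz, Nfkbid, Tnfaip3, Zc3h12a and Map3k8. All 10 were found among the 43411 genes of the expression table, and all 10 passed the filter on low counts that left 12908 genes for testing. They were measured by RNA sequencing of microglia sorted by FACS from mouse brain, 1 library per mouse from 23 mice at 3 months of age.

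The 10 homozygous mice (Homo-cKO, 5 females and 5 males) were Bin1flox/flox Thy1-Cre+, the 7 heterozygous mice (Het-cKO, 4 females and 3 males) were Bin1flox/wt Thy1-Cre+, and the 6 WT littermates (2 females and 4 males) were Bin1flox/wt Thy1-Cre-. The WT mice thus also carried 1 floxed allele, and no group without a floxed allele was analysed here. Bin1 encodes a membrane-shaping adaptor protein. The study used Thy1-Cre to delete Bin1 in excitatory neurons of the forebrain, so neurons and not microglia were the intended target. Whether Bin1 was also recombined in the sorted microglia was not tested, nor was the source of the lower Bin1 level given below. Total counts per mouse ranged from 10812969 to 16734846. Levels are given in CPM, counts scaled by the normalized library total. Bin1 itself, counted in the sorted cells, had a mean of 699 CPM (SD 88.3, n = 6) in WT, 692 CPM (SD 40.6, n = 7) in Het-cKO and 481 CPM (SD 130, n = 10) in Homo-cKO mice, and 8 of the 10 Homo-cKO mice lay below every WT mouse. All 10 microglia markers, among them P2ry12, Tmem119 and Cx3cr1, were tested, and their summed level was 65170 to 92110 CPM in WT, 61750 to 81130 CPM in Het-cKO and 55630 to 65180 CPM in Homo-cKO mice.

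Libraries also differed among the Homo-cKO mice and by animal number. In 4 Homo-cKO mice (replicates 1, 2, 6 and 7, 2 of each sex) Fos stood at 824 to 1459 CPM. It was at 0.363 to 7.0 CPM in the other 6 Homo-cKO mice, 0.250 to 1.26 CPM in Het-cKO and 0.0677 to 1.73 CPM in WT mice. The 4 Homo-cKO mice with Fos at 824 CPM or more are called high-Fos mice below, and results are given with and without them. All Homo-cKO animal numbers lie in the ranges 03xx (6 mice, the 4 high-Fos mice among them) and 04xx (4 mice), and all WT and Het-cKO numbers in the range 02xx, so genotype and a possible cohort behind these numbers cannot be told apart.

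NF-kB is a family of dimeric transcription factors. In resting cells inhibitor proteins of the IkB family hold the dimers in the cytoplasm, and signals through Toll-like, interleukin and tumor necrosis factor receptors activate the IKK kinase complex, which marks the inhibitors for destruction and lets the dimers reach the nucleus. Activity is controlled mainly at the protein level, and many of the genes that NF-kB switches on encode proteins that then restrain or reshape the response. In microglia the pathway is known for driving cytokine and chemokine production.

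Many genes that NF-kB induces carry its DNA element in the promoter. RefSeq promoters (GRCm38.p6, 250 bases before to 50 bases after a start) were matched for 7 of the 10 genes, in 12 entries, since several genes have more than 1 start. A match to the NF-kB consensus, searched on both strands, was found in 7 of the 12 entries and in 5 of the 7 genes (Nfkb2, Rel, Nfkbia, Nfkbid and Tnfaip3), compared with 8.46% of all 32851 promoter entries of the same length. The AP-1 element TGANTCA, present in 7.81% of all entries, was found in 1 entry each of Nfkb2 and Tnfaip3. The entries of Zc3h12a and Rela held neither motif in this window. A match is a stretch of letters and was not tested for binding. Below are the 250 bases before the start for a gene whose level differed between genotypes (Nfkbid, chr7:30422156-30422405, plus strand) and for one whose level did not pass the test (Nfkbia, chr12:55492648-55492897, minus strand), with the NF-kB matches in capitals. Neither window holds an annotated exon, and that of Nfkbid lies inside the gene, upstream of one of its internal starts.
Nfkbid: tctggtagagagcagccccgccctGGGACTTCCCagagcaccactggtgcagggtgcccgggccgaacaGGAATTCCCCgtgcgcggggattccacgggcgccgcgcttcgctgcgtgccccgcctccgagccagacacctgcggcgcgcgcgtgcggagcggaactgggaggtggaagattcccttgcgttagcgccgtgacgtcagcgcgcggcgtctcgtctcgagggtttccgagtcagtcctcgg
Nfkbia: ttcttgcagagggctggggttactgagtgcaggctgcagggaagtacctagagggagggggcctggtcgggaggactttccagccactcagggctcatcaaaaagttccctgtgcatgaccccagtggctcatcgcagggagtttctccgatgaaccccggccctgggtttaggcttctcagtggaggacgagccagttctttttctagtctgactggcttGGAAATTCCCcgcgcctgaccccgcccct
The Nfkbid matches begin 226 and 181 bases before the start, and the Nfkbia match 29 bases before it. The other 2 Nfkbid entries, one of them at the first start of the gene, held no match. Tnfaip3, which also did not pass the test, has the matches GGGACACCCC at 125 to 116 bases and GGAAATCCCC at 12 to 3 bases before a start, and Rel has the stretch GGGAAATCCCC at 92 to 82 bases. Of the 4 genes called higher below, only Nfkbid thus had a match. Zc3h12a had none, and the promoters of Nfkbiz and Map3k8 were not analysed here, nor was that of Nfkb1.

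The comparison of Homo-cKO with WT mice asks how microglia differ when neurons lack both Bin1 alleles. Of the 10 genes, 4 were called higher and 0 lower: Nfkbiz, Nfkbid, Zc3h12a and Map3k8. A call (a DEG) required an adjusted p below 0.05 in edgeR's quasi-likelihood test and a fold change above 1.5. The same thresholds called 3.4% of all genes tested, with 1.65% called higher, and 12.7% had an adjusted p below 0.05 at any fold change. The 10 genes were chosen with earlier results of these data known, so these shares do not test them as a set. None of the DNA-binding subunits passed, nor did the inhibitor genes Nfkbia and Tnfaip3. The median log2 fold change was 0.16 over the 10 genes and 0.012 over all genes. These 4 genes are also in the study's own list of DEGs, which was drawn from these mice and is not independent evidence.

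**Figure D1:**
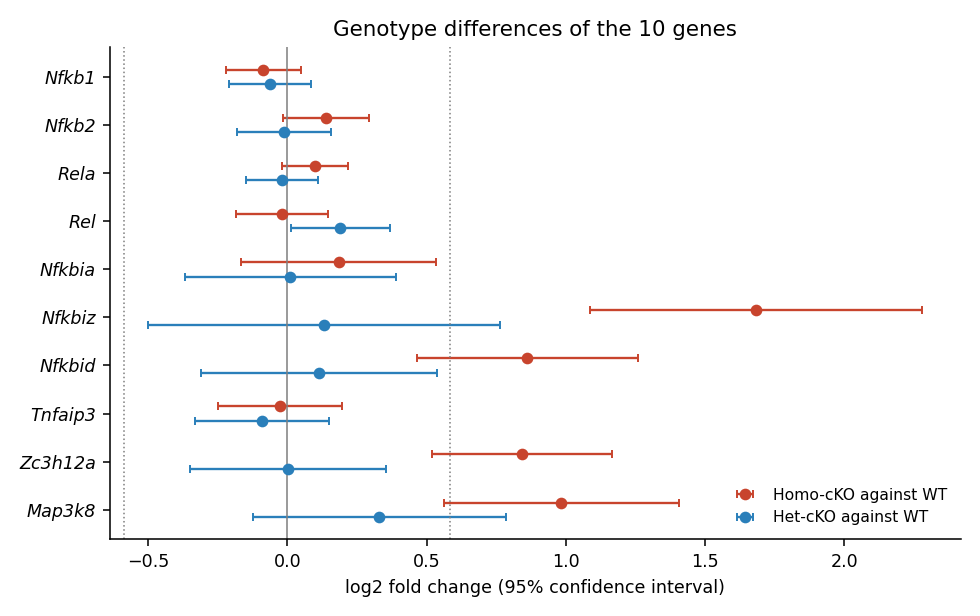
Log2 fold change of the 10 genes against WT littermates (horizontal axis), with 95% confidence intervals as bars, for Homo-cKO mice (red, n = 10) and Het-cKO mice (blue, n = 7), and WT n = 6. Dotted lines mark a fold change of 1.5. Nfkbiz, Nfkbid, Zc3h12a and Map3k8 lie to the right in Homo-cKO mice, at 1.68, 0.86, 0.84 and 0.98, and the subunits, Nfkbia and Tnfaip3 lie between -0.09 and 0.18.

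The subunits come first. Rela encodes p65, which carries the transactivation domain of the most common NF-kB dimer. It was measured at 184 to 215.998 CPM in WT (median 186) and 188 to 218 CPM in Homo-cKO mice (median 203). The ranges overlapped almost wholly, and the log2 fold change was 0.10 (SE 0.057, adjusted p = 0.265). Nfkb1 encodes the precursor of p50, the partner of p65, and the unprocessed precursor also binds and holds the kinase encoded by Map3k8. Its level was 181 to 209 CPM in WT (median 194) and 159 to 226 CPM in Homo-cKO mice (median 180). Of the Homo-cKO mice 7 lay below every WT mouse and 1 above, and the log2 fold change of -0.09 (SE 0.064) had an adjusted p of 0.418 in edgeR's test.

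Nfkb2, which encodes the precursor of p52 in the non-canonical pathway, was at 26.2 to 31.9 CPM in WT (median 27.9) and 26.4 to 33.8 CPM in Homo-cKO mice (median 31.4). Its log2 fold change was 0.14 (SE 0.074, adjusted p = 0.226), and 3 Homo-cKO mice lay above every WT mouse. Exons of Nfkb2 overlap 2 genes on the opposite strand, and the library kit does not mark strand, so reads of those genes cannot be told apart from its own. Rel encodes c-Rel, a subunit best known from lymphocytes and cytokine induction in myeloid cells. It was at 42.7 to 54.1 CPM in WT (median 48.7) and 42.6 to 52.6 CPM in Homo-cKO mice (median 46.7), and its log2 fold change was -0.02 (SE 0.079, adjusted p = 0.912). The 95% confidence intervals of the log2 fold change ran from -0.22 to 0.05 for Nfkb1, from -0.01 to 0.29 for Nfkb2, from -0.02 to 0.22 for Rela and from -0.18 to 0.14 for Rel, all inside the fold change threshold of 1.5.

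Nfkbia encodes IkB-alpha, the classical cytoplasmic inhibitor whose resynthesis ends an NF-kB response. It was at 86.8 to 157 CPM in WT (median 126), 110 to 167 CPM in Het-cKO (median 125) and 97.1 to 240 CPM in Homo-cKO mice (median 119). The 3 highest values of all mice, 240, 197 and 178 CPM, were in high-Fos mice, and the fourth high-Fos mouse was at 111 CPM, within the WT range. The log2 fold change was 0.18 (SE 0.17, adjusted p = 0.521). Without the 4 high-Fos mice it was -0.14, and none of the other 6 Homo-cKO mice lay above every WT mouse. Tnfaip3 encodes A20, a ubiquitin-editing enzyme that shuts down signalling to IKK. It was at 66.5 to 98.0 CPM in WT (median 83.3) and 63.7 to 98.5 CPM in Homo-cKO mice (median 79.7), with a log2 fold change of -0.03 (SE 0.11, adjusted p = 0.913).

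**Figure D2:**
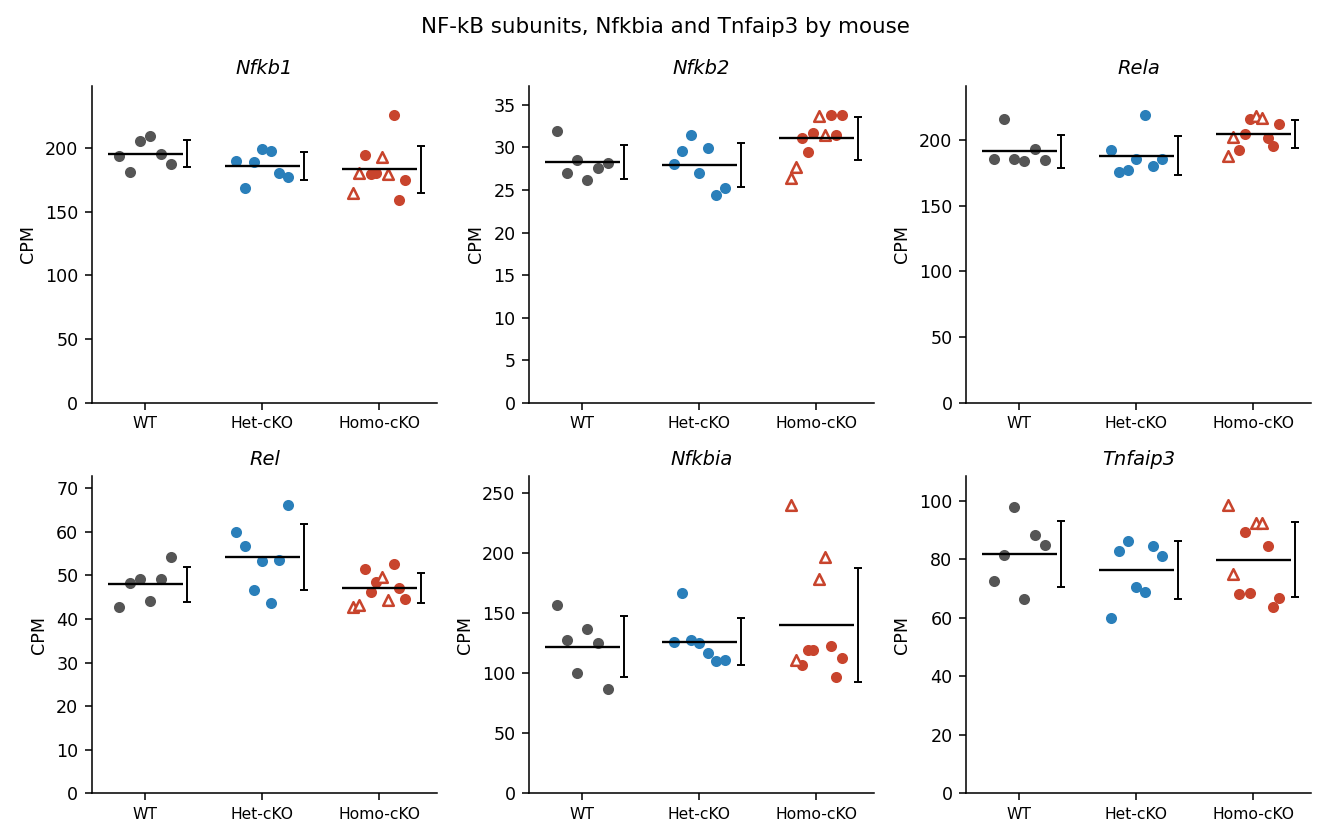
Level in CPM (vertical axes, from 0) of the 4 subunit genes, Nfkbia and Tnfaip3 in each mouse by genotype. Points are mice, open triangles the 4 high-Fos Homo-cKO mice, horizontal lines group means and bars beside them the SD. The groups overlap for all 6 genes, and 3 of the 4 triangles stand above the other mice for Nfkbia.

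Nfkbiz (ENSMUSG00000035356.14, GRCm38 chr16:55811375-55838899, minus strand) had the largest fold change of the 10 genes. It encodes IkB-zeta, an atypical IkB protein that sits in the nucleus and helps NF-kB to switch on a second wave of genes that includes Il6. Its level was 6.46 to 13.3 CPM in WT (median 8.87), 6.12 to 14.1 CPM in Het-cKO (median 9.59) and 15.4 to 51.4 CPM in Homo-cKO mice (median 21.4). All 10 Homo-cKO mice lay above every WT and every Het-cKO mouse. Over all genes tested, 0.674% had every Homo-cKO mouse above every WT mouse and 0.403% had every Homo-cKO mouse above every other mouse. The log2 fold change was 1.68 (SE 0.28, adjusted p = 0.000587), a 3.21-fold higher level. The 4 high-Fos mice held the 4 highest values, 29.2 to 51.4 CPM, and the other 6 Homo-cKO mice were at 15.4 to 22.3 CPM. Without the high-Fos mice the log2 fold change was 1.04 (adjusted p = 0.00298) and the call remained.

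Nfkbid (ENSMUSG00000036931.12, chr7:30421732-30428746, plus strand) encodes IkBNS, another nuclear IkB protein. It was at 7.38 to 12.9 CPM in WT (median 8.35), 6.77 to 12.9 CPM in Het-cKO (median 9.17) and 9.66 to 24.4 CPM in Homo-cKO mice (median 14.8). Of the Homo-cKO mice 6 lay above every WT mouse, and the log2 fold change was 0.86 (SE 0.19, adjusted p = 0.00422). Here too the 4 high-Fos mice were the highest, at 19.1 to 24.4 CPM, against 9.66 to 15.3 CPM in the other 6. Without them the log2 fold change was 0.51 (adjusted p = 0.037), below the fold change threshold, so the call was lost.

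Zc3h12a (ENSMUSG00000042677.7, chr4:125118423-125127840, minus strand) encodes Regnase-1, an endoribonuclease that degrades the mRNAs of inflammatory genes such as Il6. Its level was 8.92 to 12.9 CPM in WT (median 10.9), 7.30 to 12.5 CPM in Het-cKO (median 10.8) and 13.5 to 27.5 CPM in Homo-cKO mice (median 18.3). As for Nfkbiz, all 10 Homo-cKO mice lay above every other mouse. The log2 fold change was 0.84 (SE 0.15, adjusted p = 0.00101). High-Fos mice were at 17.0 to 27.5 CPM and the other Homo-cKO mice at 13.5 to 19.9 CPM, so these ranges overlapped. Without the high-Fos mice the log2 fold change was 0.61 (adjusted p = 0.0141), close to the fold change threshold, and the call remained.

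Map3k8 (ENSMUSG00000024235.8, chr18:4331327-4353015, minus strand) encodes TPL2, the kinase that passes Toll-like receptor signals from IKK to the MEK and ERK kinases. It was at 4.03 to 15.3 CPM in WT (median 9.67), 9.20 to 15.7 CPM in Het-cKO (median 12.0) and 12.7 to 27.3 CPM in Homo-cKO mice (median 18.4). Of the Homo-cKO mice 7 lay above every other mouse, and the log2 fold change was 0.98 (SE 0.20, adjusted p = 0.00253). The highest mouse, at 27.3 CPM, was not a high-Fos mouse. Without the high-Fos mice the log2 fold change was 0.90 (adjusted p = 0.0211). Map3k8 lies on chromosome 18, as Bin1 does, 28.0 Mb away from it, and 6.58% of the 304 chromosome 18 genes tested were called, against 3.4% of all genes. The part of linkage to the Bin1 locus in its difference was not tested.

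**Figure D3:**
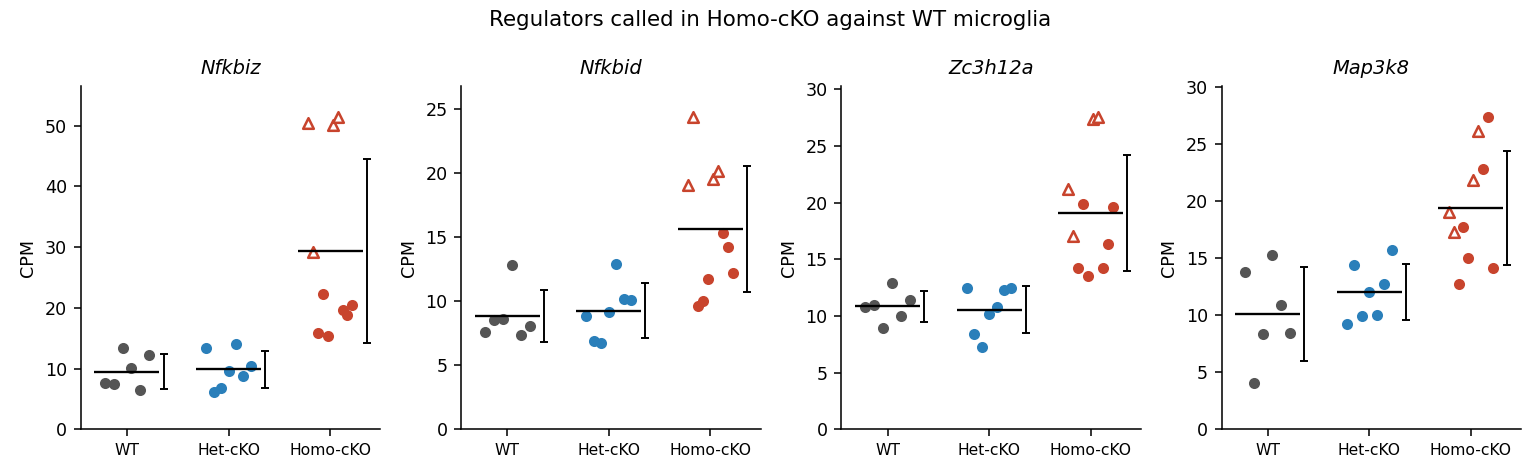
Level in CPM (vertical axes, from 0) of the 4 genes called in Homo-cKO against WT mice, in each mouse by genotype. Points are mice, open triangles the 4 high-Fos Homo-cKO mice, horizontal lines group means and bars beside them the SD. The triangles are the top values of Nfkbiz and Nfkbid, lie among the other Homo-cKO mice for Map3k8, and every Homo-cKO mouse is above every WT mouse for Nfkbiz and Zc3h12a.

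Other measures moved with these genes. Of 13 immediate-early genes tested, 10 were called higher in Homo-cKO mice by edgeR and 5 by limma-voom. Over all genes limma-voom called 498 of 12908, and the fit without the 4 high-Fos mice called 321 of 12735. In that fit 3 of the immediate-early genes were called, and their median log2 fold change was 0.62 in place of 2.13. Their mean log2 CPM over the 13 was 3.63 to 4.05 in WT, 3.66 to 3.91 in Het-cKO and 4.09 to 8.22 in Homo-cKO mice. Every Homo-cKO value thus lay above every other value. A fit that adjusts for this mean therefore compares Homo-cKO with WT mice at values they do not share, by extending a straight line. Calls kept or lost in such a fit do not tell which differences depend on the immediate-early genes. With this mean as a covariate in the fit, the log2 fold change of Nfkbiz went from 1.68 to 0.84 (adjusted p = 0.0155) and that of Map3k8 from 0.98 to 0.85 (adjusted p = 0.0328), and both were still called, whereas Nfkbid (0.39, adjusted p = 0.173) and Zc3h12a (0.54, adjusted p = 0.0371) were no longer called. In a fit with the 4 Homo-cKO mice of the 04xx range alone, none of them a high-Fos mouse, Nfkbid was not called either (0.50, adjusted p = 0.0900). The summed level of 5 monocyte markers was 4.63 to 10.9 CPM in WT and 8.81 to 25.3 CPM in Homo-cKO mice, with 1 of 3 tested called, Ccr2, which was higher. The 6 neutrophil markers, 5 of them in the table, summed to 0 to 22.1 CPM in WT and to 0 to 50.8 CPM in Homo-cKO mice. Neuronal markers summed to 11.7 to 30.1 CPM in WT and 4.29 to 8.24 CPM in Homo-cKO mice, and Snap25 and Nrgn were called lower. Border macrophage markers overlapped, at 5.89 to 27.7 CPM in WT and 4.97 to 31.0 CPM in Homo-cKO mice, with Mrc1 at 0 in every mouse. Markers of T, NK and B cells summed to at most 1.28 CPM in any mouse and were too low to test. Astrocyte markers summed to 5.32 to 17.8 CPM in WT and 0.945 to 9.33 CPM in Homo-cKO mice, with Aldoc called lower, oligodendrocyte markers to 80.6 to 129 and 62.8 to 92.3 CPM, and endothelial markers, with Cldn5 at 0 in every mouse, to 37.5 to 71.1 and 26.9 to 53.1 CPM. Of the 10 microglia markers 7 had an adjusted p below 0.05 (edgeR), with a median log2 fold change of -0.31 over the 10, and 0 passed the fold change threshold in edgeR, DESeq2 or limma-voom. The part of other cells in the differences of the 10 NF-kB genes was not tested. In bulk samples a change in cell number and a change in RNA per cell cannot be told apart.

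Ratios within a mouse do not depend on library scaling and are given as a description of the same values, with no test. The ratio of Nfkbiz to Nfkbia CPM was 0.0484 to 0.141 in WT (median 0.0662), 0.0366 to 0.120 in Het-cKO (median 0.0804) and 0.129 to 0.282 in Homo-cKO mice (median 0.191). The ratio of Nfkbid to Nfkbia was 0.0484 to 0.0943 in WT (median 0.0765) and 0.0796 to 0.2195 in Homo-cKO mice (median 0.105). The ratio of Zc3h12a to Tnfaip3 was 0.0910 to 0.195 in WT (median 0.135) and 0.168 to 0.298 in Homo-cKO mice (median 0.225). The Homo-cKO ranges overlapped the WT ranges for all 3 ratios. Per kilobase of the principal transcript, mean levels in WT ran from Nfkbia (77.4 CPM per kb) and Rela (70.5), whose ranges overlapped, through Nfkb1 (47.5), Tnfaip3 (18.5), Nfkb2 (8.98) and Rel (6.42) to Nfkbid (4.34), Zc3h12a (3.94), Map3k8 (3.94) and Nfkbiz (2.32), whose neighbours in this order overlapped from Rel on. The 4 genes called were the 4 with the lowest mean level per kilobase in WT. In Homo-cKO mice the means were 7.67 for Nfkbid, 7.55 for Map3k8, 7.13 for Nfkbiz and 6.93 CPM per kb for Zc3h12a, next to Rel at 6.30.

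The Het-cKO mice, which carry Cre and 1 floxed allele, were compared with WT in the same fit to ask whether loss of 1 neuronal allele has an effect. With edgeR 0 of the 10 genes passed an adjusted p of 0.05, and 0.0% of all genes did. At an unadjusted p below 0.05 there was 1 of the 10, Rel, and 998 of all genes. DESeq2 and limma-voom also called 0 of the 10. Rel was at 43.7 to 66.1 CPM in Het-cKO mice (median 53.5), with a log2 fold change of 0.19 (SE 0.085, adjusted p = 0.612), and 3 of 7 Het-cKO mice lay above every WT mouse. For the 4 genes called in Homo-cKO mice the log2 fold changes were 0.13 for Nfkbiz (95% confidence interval -0.50 to 0.76), 0.11 for Nfkbid (-0.31 to 0.54), 0.00 for Zc3h12a (-0.35 to 0.35) and 0.33 for Map3k8 (-0.12 to 0.78). A fold change of 1.5 lies within the intervals of Nfkbiz and Map3k8 and outside those of Nfkbid and Zc3h12a.

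Homo-cKO and Het-cKO mice both carry Thy1-Cre and differ in the number of floxed alleles. The same Homo-cKO mice enter this comparison and the one with WT, so the results are not independent. The same 4 genes were called higher, compared with 6.62% of all genes called and 2.32% called higher. The log2 fold changes were 1.55 for Nfkbiz (SE 0.27, adjusted p = 0.000302), 0.84 for Zc3h12a (SE 0.15, adjusted p = 0.00035), 0.75 for Nfkbid (SE 0.18, adjusted p = 0.00413) and 0.65 for Map3k8 (SE 0.19, adjusted p = 0.0148). Map3k8, at 1.57-fold, was close to the fold change threshold, and without Het-cKO replicate 5 it was at 0.58 (adjusted p = 0.037) and 3 of the 10 genes were called. Rel was lower in Homo-cKO mice, with a log2 fold change of -0.21 (SE 0.074, adjusted p = 0.0425), which passed the adjusted p but not the fold change threshold. At an adjusted p below 0.05 alone 5 of the 10 genes passed, and 22.8% of all genes did.

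Sex and animal number were then considered. The difference between the sexes in the Homo-cKO effect passed in 0 of the 10 genes with edgeR and 0.0% of all genes, with 0 of the 10 and 644 of all genes at an unadjusted p below 0.05, and limma-voom called 0 as well. The log2 fold change of Nfkbiz against WT was 1.82 (SE 0.50, adjusted p = 0.0935) in females and 1.60 (SE 0.37, adjusted p = 0.0124) in males. That of Zc3h12a was 0.65 (SE 0.26) in females and 0.96 (SE 0.20) in males, that of Nfkbid 0.88 (SE 0.32) and 0.82 (SE 0.25), and that of Map3k8 0.88 (SE 0.34) and 1.06 (SE 0.26). All 4 were called in males and none in females (edgeR), where WT was represented by 2 mice. In females 4 of 4 were at an unadjusted p below 0.05, as were 1903 of all 12908 genes. The 4 genes were picked from a comparison that includes these same mice, so these counts are no separate evidence. Of all genes 2.16% were called in males and 0.294% in females. Between the Homo-cKO mice of the 03xx and the 04xx range 0 of the 10 genes were called by edgeR or limma-voom, against 0.356% of all genes by edgeR, and 3 were at an unadjusted p below 0.05, as were 1273 of all 12908 genes. These were Nfkbiz (log2 difference 0.89, adjusted p = 0.22), Nfkbid (0.59, adjusted p = 0.259) and Nfkbia (0.51, adjusted p = 0.286), higher in the 03xx mice. All high-Fos mice are in the 03xx range. The remaining 03xx mice, replicates 3 and 8, had Nfkbiz at 15.8 and 19.6 CPM, with 15.4 to 22.3 CPM in the 04xx mice. For Nfkbid they were at 9.66 and 15.35 CPM (04xx 10.1 to 14.2), and for Nfkbia at 107 and 123 CPM (04xx 97.1 to 120). The part of the high-Fos mice in the range differences was not tested. Against WT in the same fit 3.66% of all genes were called in the 03xx and 2.54% in the 04xx mice. Nfkbiz was called in both ranges, with log2 fold changes of 1.97 (03xx, adjusted p = 5.4e-05) and 1.08 (04xx, adjusted p = 0.0241). Zc3h12a (0.92 and 0.71) and Map3k8 (1.02 and 0.93) were also called in both, and Nfkbid (1.07 and 0.48) was called in the 03xx range alone.

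The genes around the 10 in the pathway were taken from lists written with earlier results known. Of 6 other subunits and inhibitors (Relb, Nfkbib, Nfkbie, Bcl3, Nkap and Nkrf) 0 were called by edgeR, DESeq2 or limma-voom, and 1 was at an unadjusted p below 0.05 in edgeR. This was Bcl3, a nuclear IkB protein like those of Nfkbiz and Nfkbid, at 3.09 to 5.13 CPM in WT and 3.05 to 19.3 CPM in Homo-cKO mice (log2 fold change 0.78, SE 0.31, adjusted p = 0.101). Among 18 tested genes of the IKK complex and its upstream kinases and adaptors, 1 was called higher and 0 lower, and 4 were higher at an adjusted p below 0.05. The call was Tab3, an adaptor of the kinase TAK1 (0.71, SE 0.20, adjusted p = 0.0202). Without the high-Fos mice it was at 0.66 (adjusted p = 0.0853) and 0 of the 18 were called, with 4 at an unadjusted p below 0.05. Of all 12735 genes in that fit 321 were called and 2918 were at an unadjusted p below 0.05. The catalytic subunit Ikbkb rose by 0.27 (SE 0.084, adjusted p = 0.0332), under the fold change threshold, whereas Chuk was at 0.03 (adjusted p = 0.855).

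Of 11 tested further negative regulators, 1 was called, Irak3, which encodes a pseudokinase that blocks Toll-like receptor signalling (0.87, SE 0.23, adjusted p = 0.0136). At an adjusted p below 0.05 alone 2 were higher and 1 lower, Tnfaip8l2 (-0.22, SE 0.060, adjusted p = 0.0186). The level of Irak3 was 2.43 to 4.84 CPM in WT and 4.22 to 10.9 CPM in Homo-cKO mice, 9 of which lay above every WT mouse. Cyld, a deubiquitinase, was at 0.04 (adjusted p = 0.749). A list of RNA decay genes had 6 tested: the Regnase gene Zc3h12b, the Roquin gene Rc3h2, Zfp36, Zfp36l1, Zfp36l2 and Malt1. Of these 1 was called, Zfp36, which encodes the mRNA-destabilising protein tristetraprolin (2.13, SE 0.49, adjusted p = 0.00546). The Regnase and Roquin genes tested, Zc3h12b (0.13, adjusted p = 0.833) and Rc3h2 (-0.14, adjusted p = 0.453), were not called. Zfp36 is also on the immediate-early list, and it was not called without the high-Fos mice. Of the 7 kinases in the MEK and ERK list 0 were called by the 3 tools, 1 was at an unadjusted p below 0.05, and Map2k1 was at 0.00 (adjusted p = 0.984). The median log2 fold changes of these 5 lists were 0.08, 0.13, 0.12, 0.12 and 0.00, in the order given.

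Known NF-kB target genes outside the 10 had a higher median. Of 22 tested, 8 were called higher and 0 lower, 11 were higher and 1 lower at an adjusted p below 0.05, and the median log2 fold change was 0.66, compared with 0.012 over all genes. The cytokine gene Il1a was at 101.5 to 149 CPM in WT and 168 to 318 CPM in Homo-cKO mice, which did not overlap (0.85, SE 0.12, adjusted p = 0.000135). Il6, the gene that IkB-zeta helps to induce and whose mRNA Regnase-1 degrades, was at 2.36 to 8.04 CPM in WT and 5.93 to 14.5 CPM in Homo-cKO mice (1.05, SE 0.24, adjusted p = 0.00568). The chemokine genes Ccl2 (3.36, SE 0.54, adjusted p = 0.000355), Ccl3 (2.40, SE 0.43, adjusted p = 0.000943) and Ccl4 (1.86, SE 0.39, adjusted p = 0.00301) and the survival gene Ier3 (2.84, SE 0.62, adjusted p = 0.00413) rose as well. Their difference from WT in mean log2 CPM was larger in the high-Fos than in the other Homo-cKO mice. It was 4.19 and 1.75 for Ccl2, 3.36 and 1.17 for Ccl3, 2.78 and 0.70 for Ccl4, and 3.86 and 0.79 for Ier3. Ccl2 was at 1.08 to 2.02 CPM in WT. The adhesion gene Icam1 fell (-0.33, SE 0.10, adjusted p = 0.0369), while Tlr2 (-0.07, adjusted p = 0.693) and Sod2 (0.04, adjusted p = 0.849) did not pass. Limma-voom called 6 of the 22, and 498 of all 12908 genes. Without the 4 high-Fos mice 7 of 21 tested targets were called, with Il1a, Il6, Ccl2, Ccl3 and Ccl4 among them and Ier3 not. That fit called 321 of all 12735 genes tested. In Het-cKO against WT mice 0 of the 22 passed an adjusted p of 0.05 (edgeR, DESeq2 or limma-voom), with 1 at an unadjusted p below 0.05 in edgeR and 3 in each of the other tools.

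**Figure D4:**
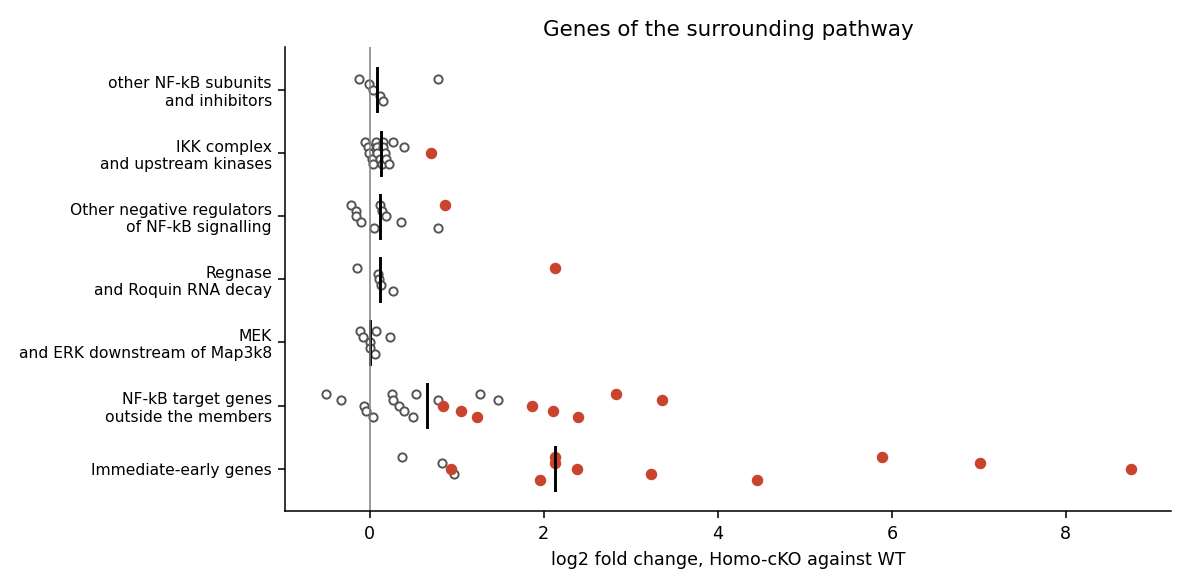
Log2 fold change in Homo-cKO (n = 10) against WT mice (n = 6) of each tested gene in 7 lists around the NF-kB pathway (rows, with points spread vertically for visibility). Filled red points are called genes, open points genes not called, and black bars list medians. The medians of the 5 lists of signalling genes lie between 0.00 and 0.13, that of the target genes is at 0.66 and that of the immediate-early genes at 2.13.

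Genes that varied most like the called genes were found from deviations of log2 CPM from the genotype means over the 23 mice, which share sorting and library preparation. For Nfkbiz these were Ier3 (Pearson r = 0.84), a gene without a symbol (r = 0.84) and 2810013P06Rik (r = 0.83). For Nfkbid they were A930006K02Rik (r = 0.88), Gm43362 (r = 0.85) and the RNA helicase gene Ddx5 (r = 0.80), and for Zc3h12a Arrdc2 (r = 0.78), Arf6 (r = 0.75) and Dmtf1 (r = 0.74). For Map3k8 they were Adamts10 (r = 0.82), Tnip2 (r = 0.79), which encodes a protein that binds the TPL2 and p105 complex, and U2af1l4 (r = 0.78). Among the 4 genes themselves, Nfkbiz varied with Zc3h12a (r = 0.74) and with Nfkbid (r = 0.71), and Nfkbid with Zc3h12a (r = 0.56), whereas r was 0.17 for Nfkbiz with Map3k8. The high-Fos mice are among the 23 points, so these values describe in part how far those 4 mice stand from the rest.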

How the data were processed

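Microglial RNA was sequenced from 23 mice. Single-end reads were aligned by the authors with OSA4 (mm10, Ensembl R84), and RSEM expected counts per gene were deposited, with no scaling for depth or length. The SMARTer and Nextera XT library does not mark strand, and how multiply aligned reads were treated is not given in the sources used here. Of 25 labelled mice, 2 have no column (a WT female and a heterozygous male).

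The expected counts were rounded. Genes were kept with filterByExpr by genotype and libraries scaled by TMM. Log2 CPM have a prior count of 2. Differences were tested by the quasi-likelihood F-test of edgeR 4.0.16 (R 4.3.3), with genotype and sex as terms, and p-values were adjusted over all 12908 genes by the Benjamini-Hochberg method. The sex difference used 6 groups of genotype and sex, and animal ranges were compared with the Homo-cKO mice split. Each SE was derived from its log2 fold change and F value. The scripts were tested on simulated data. Alternatives were DESeq2 1.42.0, limma-voom (limma 3.58.1), other normalizations, filters, covariates and subsets of mice, and each mouse left out in turn. Symbols, coordinates and promoters are of GRCm38 (GENCODE vM21 and RefSeq).

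The 10 genes, the lists and the high-Fos mice were chosen with earlier results of these data known. The text names all 10 genes, from each list the called genes (at most the 6 with the smallest p) with single counter-examples, the 3 genes most like each called gene, and Bin1 and Fos. Ikbkb, Bcl3, Tnfaip8l2 and Icam1 were singled out after their values were seen, as were the marker genes named. Replicates are separate mice, numbered in accession order.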

Additional observations from a re-analysis of the deposited data

Results flagged for a closer look

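Within a genotype, 1 mouse stood apart from the others by Dixon's criterion in 5 of 30 groups (10 genes in 3 genotypes), and chance alone flags about 1 in 20 groups. These were the Nfkb1 level of Homo-cKO replicate 8 (226 CPM, the gap to its neighbour being 0.471 of the range), the Rela level of WT replicate 2 (215.998 CPM, 0.710) and of Het-cKO replicate 5 (219.3 CPM, 0.626), the Nfkbia level of Het-cKO replicate 2 (167 CPM, 0.689) and the Nfkbid level of WT replicate 5 (12.9 CPM, 0.774). All 5 were the highest of their group. Without the WT mouse that was highest in Nfkbid, the log2 fold change of Nfkbid was 0.97 (adjusted p = 0.0024).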

How the results depend on the processing

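In Homo-cKO against WT mice, the 4 calls were kept in all 23 fits that left out 1 mouse, with log2 fold changes of 1.54 to 1.77 for Nfkbiz, 0.76 to 0.97 for Nfkbid, 0.77 to 0.90 for Zc3h12a and 0.82 to 1.21 for Map3k8. Over 13 other settings Nfkbiz and Map3k8 were called in 13, Zc3h12a in 12 and Nfkbid in 10. The number of the 10 genes called was 2 with the immediate-early covariate, and the number of called genes over the 6 NF-kB pathway lists, 11 in all, was 7 with the 04xx Homo-cKO mice alone and 6 with that covariate. Among genes that were not called, the sign turned for Rel (0.020 without the high-Fos mice, 0.031 with the covariate, -0.056 to 0.014 over the fits without 1 mouse), for Nfkbia (-0.16 with the 04xx mice alone, -0.14 without the high-Fos mice, -0.27 with the covariate) and for Tnfaip3 (0.074 with the 03xx mice alone, -0.080 to 0.027 over the fits without 1 mouse). The cause was not tested. Over all genes, 439 were called and 274 with the covariate. Between the animal ranges 46 were called, 17 with limma-voom and 1 with the Homo-cKO mice alone, where fewer samples enter. No paired analysis was possible because the labels give no replicate numbers that groups share. Genes at a few CPM, such as Nfkbiz and Map3k8 in WT, carry more counting error than the subunit genes at these depths.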
